A study of Mus musculus with 6 samples.

Results

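Endothelial genes were compared between wild-type and Wt1-/- urogenital ridges of mouse embryos. The set named 10 genes, and every probe whose platform gene symbol was one of them was taken. This gave 9 probes for 8 genes, Pecam1, Emcn, Kdr, Tek, Tie1, Flt1, Flt4 and Cd34, out of 20289 probes on the array. Eng and Egfl7 had no probe with 1 matching symbol in the annotation used here and were not analysed. The urogenital ridge is the embryonic tissue that forms the gonad and the mesonephros, and Wt1 encodes a zinc finger transcription factor of its epithelium and mesenchyme. Wild-type Mf1 embryos were set against Mf1 embryos homozygous for a deletion of Wt1, both at E11.5 with 11 to 12 tail somites and untreated. Each array was labelled as a pool of the ridges of 5 embryos, 4 female and 1 male, and there were 3 single-colour CodeLink arrays per genotype. Whether each array had its own pool is not stated in the labels, so p-values here describe array-to-array spread that may be technical.

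Endothelial cells line blood and lymphatic vessels. Their growth is driven by VEGF ligands, which bind the receptor tyrosine kinases encoded by Flt1, Kdr and Flt4, and vessel maturation depends on angiopoietins, which bind the receptor encoded by Tek, while the related receptor encoded by Tie1 modulates that signal. Pecam1 and Cd34 encode cell surface glycoproteins of endothelium that blood cells also carry, and Emcn encodes endomucin, a sialomucin of capillary and venous endothelium. The early gonad and mesonephros are vascularised by vessels of this kind.

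In the Wt1-/- ridges 3 of the 7 endothelial genes that could be tested fell, 1 rose and 3 did not pass the test. Pecam1 fell 2.49-fold, Emcn 1.76-fold and Tek 1.64-fold. Kdr rose 1.19-fold under the deposited scaling, a rise that did not pass after quantile or cyclic loess normalization. Tie1 and Flt4 had overlapping arrays. Over the whole array 41.3% of 15062 tested probes passed the same threshold of adjusted p under 0.05, 17.2% as lower and 24.1% as higher. The endothelial share called lower was 42.9% and the share called higher 14.3%, each of 7 genes, and their median log2 change was -0.33 against 0.09 over all tested probes. In RNA from whole tissue, fewer endothelial cells and less RNA per cell cannot be told apart.

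**Figure D1:**
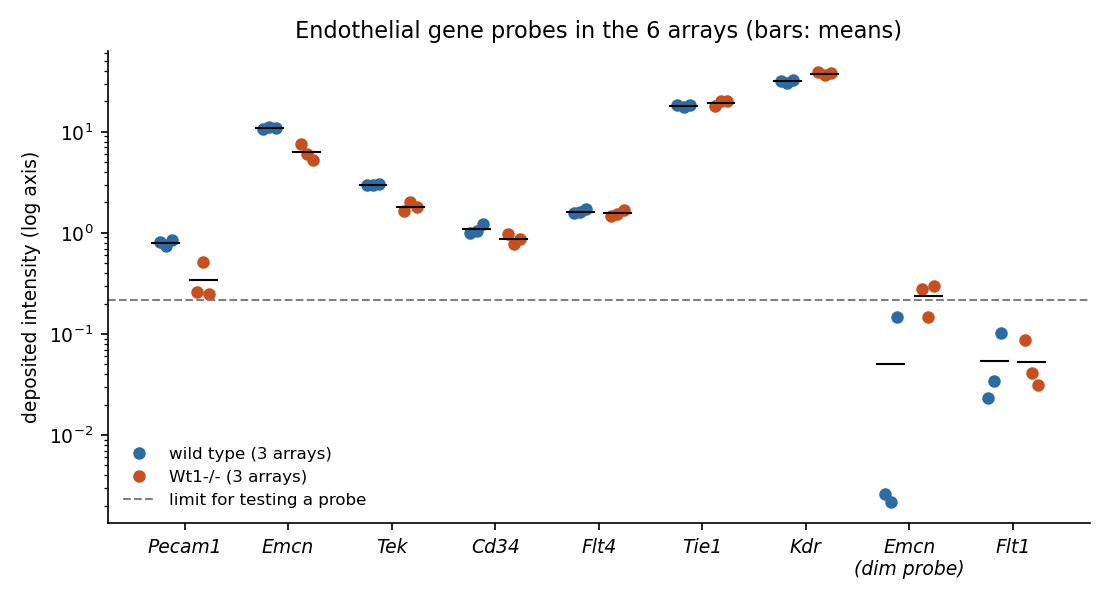
Deposited intensity (log axis, no unit) of each endothelial probe on the 3 wild-type and 3 Wt1-/- arrays; points are arrays, bars are means, and the dashed line is the limit of 0.217 that a probe's mean had to exceed to be tested. Pecam1, Emcn and Tek sit lower on all Wt1-/- arrays, while Flt1 and a second Emcn probe lie near or under the limit; levels of different probes cannot be set against each other.

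Promoter sequences show the starting points of the genes that moved and of one that did not pass. They come from RefSeq on GRCm38.p6, run from 250 bases before to 50 bases after the annotated start and are written on the gene's strand. The table held 9 of the 10 genes, all but Pecam1. Emcn and Tek fell, Kdr rose under the deposited scaling, and Tie1 is the close relative of Tek that did not pass. Capitals mark GGAA and its reverse complement TTCC, the core letters bound by ETS factors, a family with many members in endothelium.
Emcn, chr3:137340828-137341127, plus strand: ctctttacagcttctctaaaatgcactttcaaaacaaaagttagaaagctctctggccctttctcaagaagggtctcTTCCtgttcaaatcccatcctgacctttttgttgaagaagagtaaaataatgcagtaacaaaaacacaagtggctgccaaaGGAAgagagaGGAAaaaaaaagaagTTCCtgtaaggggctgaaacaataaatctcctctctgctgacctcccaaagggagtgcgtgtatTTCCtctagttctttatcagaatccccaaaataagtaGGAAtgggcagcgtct
Tek, chr4:94739039-94739338, plus strand: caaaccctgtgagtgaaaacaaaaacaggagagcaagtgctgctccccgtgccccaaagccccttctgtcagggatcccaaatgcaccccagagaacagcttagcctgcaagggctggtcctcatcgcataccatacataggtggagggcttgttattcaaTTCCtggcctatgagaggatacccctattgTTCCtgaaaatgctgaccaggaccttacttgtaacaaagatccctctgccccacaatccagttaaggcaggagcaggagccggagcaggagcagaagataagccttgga
Kdr, chr5:75978406-75978705, minus strand: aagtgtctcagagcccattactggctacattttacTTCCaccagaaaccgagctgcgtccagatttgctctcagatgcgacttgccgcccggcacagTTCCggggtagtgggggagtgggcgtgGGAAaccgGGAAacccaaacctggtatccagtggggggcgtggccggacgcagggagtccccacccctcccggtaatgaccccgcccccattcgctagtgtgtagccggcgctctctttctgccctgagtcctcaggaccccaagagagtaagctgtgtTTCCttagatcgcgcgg
Tie1, chr4:118489800-118490099, minus strand: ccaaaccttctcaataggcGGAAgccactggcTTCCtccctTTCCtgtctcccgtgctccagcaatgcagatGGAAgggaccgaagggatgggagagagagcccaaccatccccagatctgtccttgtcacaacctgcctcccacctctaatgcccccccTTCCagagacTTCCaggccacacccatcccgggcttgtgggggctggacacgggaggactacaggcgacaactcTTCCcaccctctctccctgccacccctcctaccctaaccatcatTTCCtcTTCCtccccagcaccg
These windows held 6 GGAA or TTCC matches in Emcn, 2 in Tek, 5 in Kdr and 9 in Tie1. The median over 32851 promoter windows of the same length was 3, and 96% of them held at least 1 match. As many matches as in Tie1 were found in 1.59% of the windows, and as many as in Emcn in 15.7%. So the genes that fell held both more and fewer matches than the median window, and Tie1, which did not pass, held the most of the 4. The letters AGATAA, a form of the motif that GATA factors bind, were searched on both strands. They occurred in Tek but in none of the other windows of these genes, against 11.2% of all windows. None of the 4 printed windows held TATAAA on either strand. The Kdr window held 19 CpG, Tie1 7, Tek 3 and Emcn 2, against a median of 7 CpG over all windows. As many CpG as in Kdr were found in 28.1% of the windows. Kdr also held 2 matches of GGGCGG on either strand, letters that 35.7% of all windows held and the other printed windows did not. A match describes letters and does not show binding.

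Among the surface glycoproteins, Pecam1 had the largest change. Its intensities were 0.821, 0.736 and 0.846 on the wild-type arrays and 0.258, 0.514 and 0.249 on the Wt1-/- arrays. The genotypes did not overlap, as at 52.6% of the tested probes, and the second Wt1-/- array lay nearer to the lowest wild-type array than to the other Wt1-/- arrays. Wild type averaged 0.801 ± 0.0578 and Wt1-/- 0.340 ± 0.151 (SD, n = 3 each), so 40.1% of the signal was left. The log2 change was -1.32 ± 0.28 (SE), with a 95% interval of -1.92 to -0.71 (adjusted p = 0.00253, limma). Of the tested probes 1.35% fell further. Without the second Wt1-/- array the log2 change was -1.66, and with 0.5 added to each intensity before log2 was taken it was -0.64, so the size of the fall, though not its call, depended on how a dim probe was treated.

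Emcn had a brighter and a dimmer probe. The brighter one read 10.6, 11.2 and 11.0 in wild type and 7.58, 5.97 and 5.25 in Wt1-/-. All 3 Wt1-/- arrays lay well under the lowest wild-type array, with the first nearest to it. Wild type averaged 10.9 ± 0.298 and Wt1-/- 6.27 ± 1.19 (SD, n = 3 each). The log2 change was -0.82 ± 0.11 (SE, adjusted p = 0.000159, limma). The dimmer probe, drawn from an expressed sequence tag, read 0.00258, 0.00219 and 0.147 in wild type and 0.275, 0.149 and 0.296 in Wt1-/-. That order is the reverse of the brighter probe's, but 4 of its 6 values lay under the limit of 0.217 and it was not tested. With the dim probes kept it had a log2 change of 1.22 ± 0.45 (SE, adjusted p = 0.0661, limma), so the 2 probes disagree in sign and the fall of Emcn rests on the brighter probe.

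Cd34, which encodes a sialomucin of vessels and of blood progenitors, read 1.01, 1.05 and 1.21 in wild type and 0.975, 0.771 and 0.864 in Wt1-/-. The arrays did not overlap, although the gap between the nearest arrays was small. The log2 change was -0.33 ± 0.14 (SE, adjusted p = 0.0772), with a 95% interval of -0.63 to -0.03 that is not adjusted for the number of probes. It did not pass the test, but it passed without the first Wt1-/- array (log2 change -0.41, adjusted p = 0.0250, limma).

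The angiopoietin receptor Tek fell. Its intensities were 2.94, 2.96 and 3.03 in wild type and 1.65, 2.0 and 1.80 in Wt1-/-. The wild-type arrays were within a narrow band and every Wt1-/- array lay far outside it. Wild type averaged 2.98 ± 0.0460 and Wt1-/- 1.82 ± 0.178 (SD, n = 3 each). The log2 change was -0.72 ± 0.09 (SE, adjusted p = 0.000110, limma). Its relative Tie1 read 18.4, 17.6 and 18.4 against 18.1, 20.1 and 20.2, and the genotypes overlapped. The log2 change of Tie1 was 0.10 ± 0.07 (SE, adjusted p = 0.298), with a 95% interval of -0.06 to 0.26. It passed as higher without the first Wt1-/- array (log2 change 0.15, adjusted p = 0.0473, limma), and it was -0.04 after quantile and -0.03 after cyclic loess normalization.

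Of the 3 VEGF receptor genes, Kdr, which encodes the main signalling receptor VEGFR2, read 31.9, 30.5 and 32.8 in wild type and 38.8, 36.3 and 37.9 in Wt1-/-. The genotypes did not overlap. Wild type averaged 31.7 ± 1.16 and Wt1-/- 37.7 ± 1.29 (SD, n = 3 each). The log2 change was 0.25 ± 0.07 (SE, adjusted p = 0.0127), close to the median of 0.26 in the brightest eighth of the tested probes (mean intensities of 20.9 or more), to which the Kdr probe belongs. After quantile normalization, which brought that median to -0.0042, the change of Kdr was 0.03 (adjusted p = 0.740), and after cyclic loess normalization it was 0.06 (adjusted p = 0.491). The call also ended without the second wild-type array, at a log2 change of 0.22 and adjusted p = 0.0713 (limma). Flt4, which encodes VEGFR3, the receptor of lymphatic and early venous endothelium, read 1.55, 1.59 and 1.73 against 1.46, 1.55 and 1.69. Its arrays overlapped, with a log2 change of -0.06 ± 0.10 (SE, adjusted p = 0.691) and a 95% interval of -0.28 to 0.17. Flt1, which encodes VEGFR1, a receptor that binds VEGF with little signalling, read 0.0233, 0.0343 and 0.103 against 0.0866, 0.0409 and 0.0311. All 6 values lay under the limit and the gene was not tested.

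**Figure D2:**
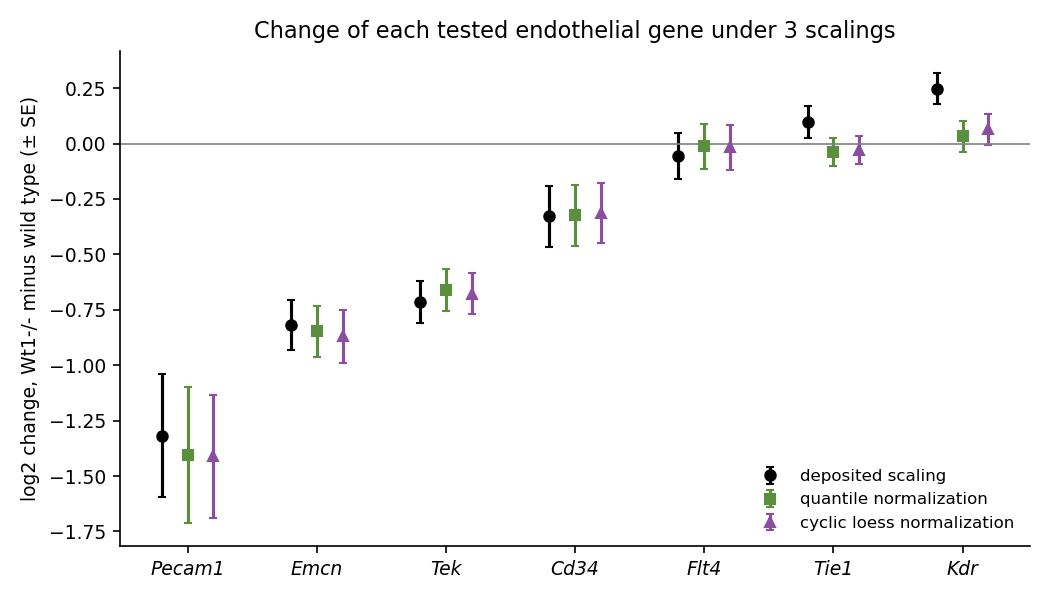
Log2 change in Wt1-/- against wild type (± SE from limma, 3 arrays each) of the 7 tested endothelial genes, as deposited and after quantile or cyclic loess normalization. Pecam1, Emcn and Tek stay below 0 in all 3 settings, while Kdr goes from 0.25 to 0.03 and 0.06 and Tie1 changes sign.

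Ratios between genes on the same array do not change when a whole array is multiplied by a constant, but they do change under normalizations that depend on intensity. They restate the values of the single genes and were not tested again. Relative to the wild-type mean, the log2 ratio of Kdr to Tek was 1.15, 0.77 and 0.98 on the Wt1-/- arrays, while the wild-type arrays lay between -0.05 and 0.02. The mean difference was 0.96 as deposited, 0.69 after quantile and 0.74 after cyclic loess normalization, settings tried here after the data were seen. The ratio of Tie1 to Tek was higher by 0.85, 0.72 and 0.88 (log2), with a mean of 0.81 as deposited, 0.62 after quantile and 0.65 after cyclic loess normalization. Kdr and Tie1 thus stood above Tek on each Wt1-/- array as deposited, by an amount that depended on the scaling. The ratio of Pecam1 to Emcn differed by -1.10, 0.23 and -0.63 on the 3 Wt1-/- arrays, and that of Tek to Emcn by -0.32, 0.30 and 0.34. The signs of both ratios differed between arrays, so the place of Emcn beside Pecam1 and Tek varied. Relative to their wild-type means, Pecam1 lay at -1.63, -0.64 and -1.68 (log2) and Tek at -0.85, -0.57 and -0.72. Pecam1 was thus lower than Tek on each Wt1-/- array, though by little on the second.

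The Wt1-/- arrays did not rank alike for the genes that fell. Pecam1 was highest on the second Wt1-/- array, at -0.64 (log2) from the wild-type mean against -1.63 and -1.68 on the other two. Emcn was highest on the first, at -0.53 against -0.87 and -1.06. Tek was highest on the second, at -0.57, and lowest on the first, at -0.85. No single Wt1-/- array was therefore the lowest for all of these genes.

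**Figure D3:**
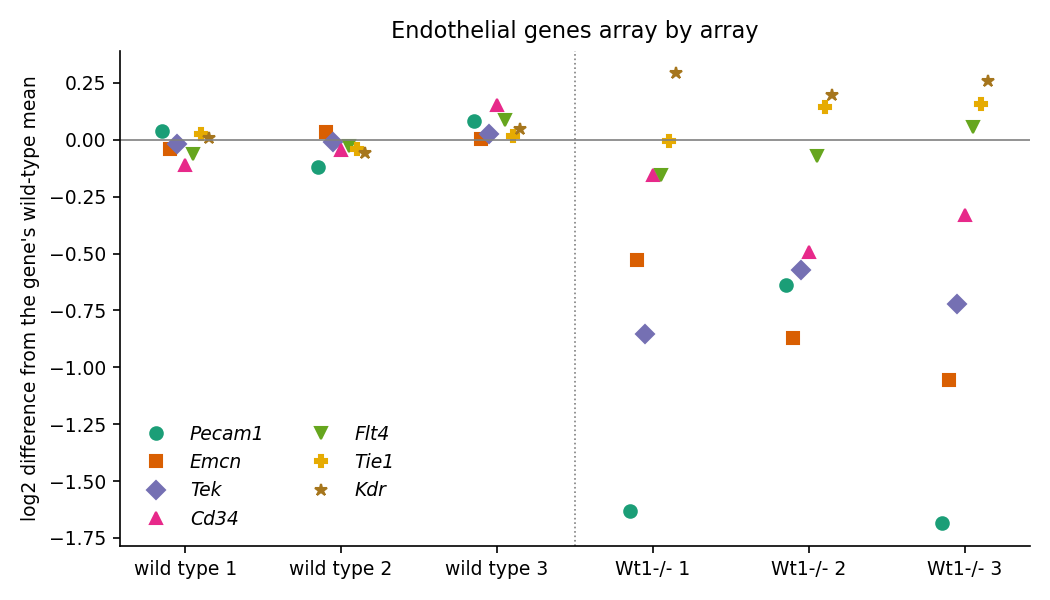
Log2 difference of each tested endothelial gene from its own wild-type mean on every array. Wild-type points lie between -0.12 and 0.16, and on the Wt1-/- arrays Pecam1, Emcn and Tek lie between -0.53 and -1.68 while Kdr lies between 0.20 and 0.29.

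The genes whose arrays most resembled those of Pecam1 were Kif1c, Cspg4 and App, at Euclidean distances of 0.27, 0.41 and 0.45 over the 6 arrays (log2 values, each probe centred on its wild-type mean), among 11867 named probes. Their log2 changes were -1.24, -1.12 and -1.32. Cspg4 encodes the pericyte proteoglycan NG2, Kif1c a kinesin and App the amyloid precursor protein. Like Pecam1, Cspg4 had Wt1-/- values close to the limit of 0.217. Any probe has nearest probes, so the ranking does not show a shared cell type, which was not tested.

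Signals that act on endothelium moved in both directions. Of 14 tested genes of VEGF, angiopoietin and apelin signalling, 6 rose (42.9%, against 24.1% of all tested probes) and 2 fell (14.3%, against 17.2%), with a median log2 change of 0.39 against 0.09 over all tested probes. Vegfc, a ligand of VEGFR3, rose 1.78-fold, from 3.51, 3.18 and 3.59 to 6.74, 6.07 and 5.53 (adjusted p = 3.18e-05, limma). Nrp2, a co-receptor for VEGF-C and semaphorins, rose 1.83-fold, from 3.57 ± 0.232 to 6.54 ± 0.824 (SD, n = 3 each). Apln, the apelin ligand, rose 1.90-fold, from 1.92 ± 0.103 to 3.65 ± 0.315, and its receptor gene Aplnr rose 1.63-fold, from 0.534 ± 0.0364 to 0.867 ± 0.0457 (SD, n = 3 each). The arrays of these 4 genes did not overlap between genotypes, as at 52.6% of the tested probes.

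Nrp1, a co-receptor of VEGFR2 that also serves semaphorins, fell 1.48-fold, with intensities of 8.31, 8.47 and 8.14 in wild type and 5.23, 5.97 and 5.6 in Wt1-/- (adjusted p = 0.000122, limma). Nrp1 and Nrp2 thus passed the test in opposite directions. Vegfa, the main ligand of VEGFR2, was chosen after its values were seen. It read 5.44, 5.63 and 5.67 in wild type and 5.23, 3.35 and 3.69 in Wt1-/-, so the first Wt1-/- array lay close to wild type. Its log2 change was -0.48 ± 0.14 (SE, adjusted p = 0.0144), and the call ended when the prior on the variance had no intensity trend. It also ended when wild-type array 2 or 3 or Wt1-/- array 2 or 3 was left out, and the highest adjusted p over these fits was 0.0755 (limma). The ligand genes Vegfb, Pgf, Vegfd and Angpt2 did not pass, with log2 changes of -0.19, -0.10, 0.34 and -0.11, and Angpt1, which encodes the activating ligand of the Tek receptor, lay under the limit on all 6 arrays and was not tested. These genes were also named after their values were seen.

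Of 30 other tested surface and junction genes of endothelium, 5 fell (16.7%) and 6 rose (20%), shares near the 17.2% and 24.1% of all tested probes, with a median log2 change of -0.08. Esam, an endothelial adhesion molecule of tight junctions, fell 1.44-fold, from 9.51, 9.34 and 8.32 to 5.98, 6.59 and 6.27 (adjusted p = 0.000299, limma). Tm4sf1, a tetraspanin-like membrane protein gene, fell 1.49-fold on its brighter probe, while its dimmer probe had a log2 change of 0.61 ± 0.40 (SE) and did not pass. Icam2 and Cldn5, the endothelial adhesion molecule and claudin genes, fell 1.42-fold and 1.35-fold and were named after their values were seen. Of the 30 genes, 19 did not pass under the deposited scaling. Plvap, Ramp2, Cd93, Clec14a and Adgrl4 among them, also named after their values were seen, had log2 changes of -0.17, -0.15, -0.10, -0.20 and 0.05. Plvap and Ramp2 passed as lower after quantile and cyclic loess normalization, and Cd93 after the latter. Calcrl, the receptor for adrenomedullin and CGRP, fell 1.46-fold at adjusted p = 0.0361, a call that ended in 7 of 14 alternatives, with adjusted p of up to 0.140 (limma). Among these were the fits that left out any one of the 3 wild-type arrays or of the first and second Wt1-/- arrays.

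The genes of this group that rose included Pdpn, which encodes podoplanin of lymphatic endothelium and of other epithelia, 1.54-fold higher, from 7.67, 7.10 and 7.28 to 9.73, 12.0 and 12.3. Stab2, a scavenger receptor gene of sinusoidal endothelium, rose 1.44-fold, from 3.64 ± 0.176 to 5.25 ± 0.413 (SD, n = 3 each). Tspan8, Acvrl1, Ednrb and Stab1, named after their values were seen, rose 1.42-fold, 1.32-fold, 1.32-fold and 1.28-fold. The call of Stab1 ended after quantile and after cyclic loess normalization, and that of Ednrb held in 9 of 15 alternatives. Cdh5, which encodes VE-cadherin and is a defining endothelial gene, read 0.154 ± 0.0579 and 0.181 ± 0.150 (SD, n = 3 each), too dim to be tested. It was named after its values were seen.

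Transcription factors of the endothelial list had 7 of 24 tested members lower (29.2%, against 17.2% of all probes) and 3 higher (12.5%, against 24.1%). Elk3, an ETS family repressor, fell 2.5-fold, from 1.88, 1.85 and 1.71 to 0.778, 0.613 and 0.800 (adjusted p = 1.39e-05, limma). Hey1, a Notch target gene, fell 2.45-fold, from 3.42 ± 0.159 to 1.39 ± 0.0325 (SD, n = 3 each). Foxo1, a forkhead factor restrained by growth factor signalling, fell 1.73-fold, Gata2, a factor of endothelium and blood progenitors, 1.55-fold, and Lyl1, a relative of the blood and vessel factor Tal1, 1.94-fold. The call of Lyl1 ended without the third wild-type array (adjusted p = 0.0523). The 3 that rose were Tal1, Etv6 and Foxc2, at 0.29, 0.31 and 0.34 on the log2 scale. These 3 were named after their values were seen. Those of Tal1 and Foxc2 did not pass after quantile normalization, at 0.12 and 0.09, or after cyclic loess normalization, at 0.14 and 0.11. The call of Etv6 ended with the dim probes kept and without any one of the wild-type arrays (adjusted p of up to 0.0830, limma). Sox7, Sox17, Sox18, Erg and Fli1, other factors of endothelial identity named after their values were seen, did not pass, with log2 changes of -0.19, 0.10, -0.09, 0.23 and -0.19.

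Of 8 tested arterial, venous and Notch genes, 2 fell (25%, against 17.2% of all tested probes) and 1 rose (12.5%, against 24.1%). Cxcl12, a chemokine that draws endothelial and blood cells, fell 2.63-fold, from 4.36, 4.65 and 4.25 to 1.42, 1.79 and 1.86 (adjusted p = 2.64e-06, limma). The calls of Unc5b (log2 change -0.24) and of Jag2 (0.36) ended in 10 and 9 of 15 alternatives. The lost calls included those in fits without any one of the wild-type arrays and, for Unc5b, without Wt1-/- array 2 or 3, and for Jag2 without Wt1-/- array 1 or 3. Over the 4 groups of vessel genes, 16 of 76 tested genes fell and 16 rose, or 21.1% each, against 17.2% and 24.1% of all tested probes. These shares are near the background of the array under the deposited scaling. They count the brightest probe of each gene, and some other tested probes differed. Nr2f2 and Ptprb, named after their values were seen, counted as not passing. Another probe of each passed as lower, at log2 changes of -0.72 and -0.34. A second probe of Prox1, also named after its values were seen, was at 0.35 against -0.24, and neither passed. After quantile normalization 19 fell (25%, against 19.6% of all tested probes) and 11 rose (14.5%, against 20.2%). After cyclic loess normalization 23 fell (30.3%, against 20.1%) and 12 rose (15.8%, against 19.7%).

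**Figure D4:**
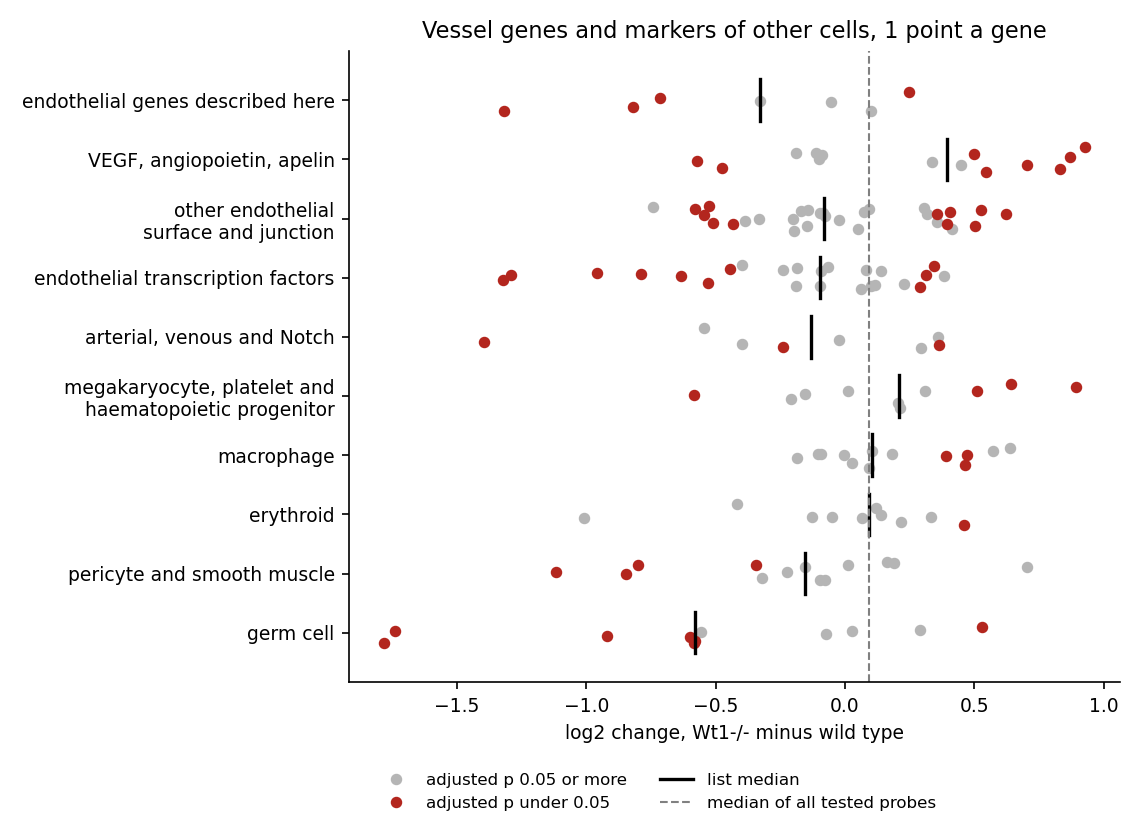
Log2 change in Wt1-/- against wild type of every tested gene in each list except the markers of the urogenital ridge, which are not drawn (1 point a gene, spread vertically for legibility; red where adjusted p was under 0.05), with list medians in black and the median of all tested probes, 0.09, dashed. The endothelial genes span -1.32 to 0.25, the signalling list has its median at 0.39 and the germ cell list at -0.58.

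Markers of other cells that carry some of these transcripts were measured on the same arrays. Platelets and their precursors carry Pecam1 protein, and in the list of megakaryocyte, platelet and blood progenitor markers 3 of 10 tested genes rose (30%) and 1 fell (10%), near the 24.1% and 17.2% of all tested probes. Gp9, Gp1bb and Pf4, genes of the platelet lineage, rose 1.86-fold, 1.56-fold and 1.42-fold, while Kit fell 1.5-fold. The same Kit probe also stands in the list of germ cell markers and is counted as lower there too. The summed intensity of this list was 27.2 to 28.4 in wild type and 30.6 to 34.7 in Wt1-/-, with Pf4 as its brightest member. Such sums follow the brightest probes and do not measure cell numbers, since levels of different probes cannot be set against each other. Itga2b, Itgb3 and Gp5, named after their values were seen, were too dim to be tested. Of 13 tested macrophage markers 3 rose, a share of 23.1% that is near the 24.1% of all tested probes, and none fell (against 17.2%). The sum was 38.8 to 39.6 in wild type and 40.6 to 44.9 in Wt1-/-. Its brightest member, C1qb, named after its values were seen, did not pass. When single arrays were left out, 2 to 6 macrophage markers rose. Over the whole array the same fits gave 2820 to 4243 higher calls, against 3625 with all 6 arrays. Of 10 tested erythroid markers 1 rose (10%, against 24.1% of all tested probes) and none fell (against 17.2%), and the sums, 1465 to 1509 and 1457 to 1564, overlapped. After quantile and after cyclic loess normalization 3 of the 10 erythroid markers fell, against 19.6% and 20.1% of all tested probes. The embryonic globins Hbb-y and Hbb-bh1 were among them, whose probes may not separate them from related globins. These probes belong to the brightest eighth, whose median log2 change was 0.26 as deposited, -0.0042 after quantile and 0.03 after cyclic loess normalization.

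Primordial germ cells, which lie in the ridge at this stage, also carry Pecam1. Of 11 tested germ cell markers 6 fell (54.5%, against 17.2% of all tested probes) and 1 rose (9.09%, against 24.1%). Dazl, whose Wt1-/- values reached below the limit of 0.217, was at least 2.54-fold lower against that limit (or the probe's own value where higher). Alpl and Dppa3 had log2 changes of -0.92 and -0.60, and Ifitm1 fell from 105 ± 8.01 to 30.4 ± 0.261 (SD, n = 3 each). The summed intensity was 146 to 163 in wild type and 73.9 to 77.2 in Wt1-/-. In wild type Ifitm1 makes up the largest part, so the fall of the sum mostly follows this probe. It is no measure of germ cell number. The germ cell markers Pou5f1, Ddx4, Ifitm3 and Sycp3, named after their values were seen, did not pass. Their log2 changes were 0.03, 0.29, -0.07 and -0.56. Of 13 tested pericyte and smooth muscle markers 4 fell (30.8%, against 17.2% of all tested probes) and none rose (against 24.1%), with Cspg4 2.17-fold, Des 1.80-fold, Acta2 1.74-fold and Myh11 1.27-fold lower. The pericyte sum was 160 to 166 against 126 to 134, of which Acta2, from 58.6 ± 4.48 to 33.6 ± 2.65 (SD, n = 3 each), makes up the largest part. The Wt1-/- values of Cspg4 were 0.245, 0.400 and 0.212, around the limit of 0.217. The other 9 markers of this list did not pass and were named after their values were seen. Pdgfrb, Tagln, Mcam, Notch3 and Pdgfb had log2 changes of -0.22, -0.16, -0.08, -0.32 and -0.10. Those of Rgs5, Kcnj8, Anpep and Cnn1 were 0.19, 0.70, 0.16 and 0.01. The part of germ cells, platelets or pericytes in the changes of Pecam1, Emcn and Tek was not tested.

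For the array as a whole, arrays of 1 genotype correlated at r of 0.974 to 0.986 and pairs across genotypes at 0.965 to 0.972 (log2 values across probes, which are not independent replicates). The median SD between arrays was 0.0951 in wild type and 0.153 in Wt1-/- (log2), and the number of arrays limits the precision. Wt1 itself fell from 42.3 ± 2.77 to 14.7 ± 0.788 (SD, n = 3 each) on its brighter probe. Where that probe lies relative to the deletion is not given in the sources used here. Of 12 tested markers of the ridge 5 fell (41.7%, against 17.2% of all tested probes) and 4 rose (33.3%, against 24.1%). Amhr2, Lhx9 and Gata3, genes of gonad and nephric duct, had wild-type means of 30.6, 4.23 and 9.64 and Wt1-/- means of 0.480, 1.12 and 16.7. Gata4, named after its values were seen, did not pass, at 2.30 and 2.22.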

How the data were processed

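Biotin-labelled total RNA from pooled ridges was measured on CodeLink arrays, per the labels. The deposited table holds linear intensities, with array medians of 0.956 to 0.966. What software, background correction or flagging the authors applied is not stated. There are no detection flags, and 153 to 246 values per array were at or below 0.

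Intensities were raised to at least the 5th percentile of positive values (0.0811) and converted to log2. Probes entered the test where each genotype had at least 2 values and the mean log2 exceeded the 25th percentile of probe means, an intensity of 0.217. The genotype effect was fitted in limma 3.58.1 (R 4.3.3; linear model, empirical Bayes with intensity trend, two-sided). Benjamini-Hochberg adjustment ran over all 15062 tested probes. Fold changes are back-transformed log2 changes. The fit was tested on simulated data. Alternatives were other floors, filters, scalings and variance priors, a replicate block, all tested probes of a gene averaged, and each array left out in turn.

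The platform annotation from GEO may be outdated; it gave 1 symbol for 15120 probes, several for 38 and none for 5131. Symbols were updated through Entrez identifiers to RefSeq GRCm38.p6, where 56 found no match. For lists, the brightest probe having all 6 values stood for a gene. Named are all endothelial probes, Wt1, up to 5 called genes of largest change per list (the 3 brightest where fewer than 2 were called), and the 3 probes nearest to Pecam1; others are said to be chosen after their values were seen. The members and lists were chosen with earlier results of these data known, and no list was tested as a set. Arrays with the same number in the 2 genotypes did not deviate together (r = 0.00049, -0.0208 and -0.0057), so the numbers were not taken as pairs.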

Additional observations from a re-analysis of the deposited data

How the results depend on the processing

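Pecam1 (14 alternatives, since a filter at the median leaves it out), Emcn (15) and Tek (15) stayed lower and past the threshold in every alternative run, with log2 changes of -1.66 to -0.64, -0.96 to -0.70 and -0.79 to -0.59. The number of endothelial genes called lower was 2 to 4 over the 16 alternatives. The number called higher, 1 as reported, was 0 after quantile and after cyclic loess normalization, and 0 to 2 when single arrays were left out. Without the second wild-type array it was 0, and without the first Wt1-/- array it was 2. Tie1 changed sign after quantile (-0.038) and cyclic loess (-0.031) normalization. With the replicate number as a block, Pecam1, Emcn and Tek had log2 changes of -1.32, -0.82 and -0.72, and the block changed no call among the endothelial genes but ended those of Calcrl, Unc5b and Jag2; over the array it gave 3453 higher and 2566 lower calls. Over the whole array, calls ran from 2820 to 4243 higher and from 1970 to 3074 lower. In the 4 groups of vessel genes they ran from 11 to 17 higher and from 11 to 23 lower. Of 320 counts for single lists under alternatives, 281 stayed within 1.5 times the reported count; among the others, the surface and junction list had 9 lower genes after cyclic loess normalization against 5, the transcription factors 1 higher after either normalization against 3, and the erythroid list 3 lower against 0. Without detection flags, dim probes such as Flt1 and the second Emcn probe cannot be told from background. The same holds for the lowest Wt1-/- values of Pecam1, 0.258 and 0.249, which lay just above the limit of 0.217.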
